A study of Mus musculus with 2 samples.

Results

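Voltage-gated sodium channel genes were examined in nuclei of the mouse thalamus. The 8 members were chosen by symbol: 5 genes for pore-forming alpha subunits (Scn1a, Scn2a, Scn3a, Scn8a and Scn9a) and 3 genes for auxiliary beta subunits (Scn2b, Scn3b and Scn4b). They are 8 of the 32285 gene rows of the count tables, and their Ensembl identifiers were all matched to a symbol of the GENCODE M21 annotation of GRCm38. The study compared mice with a cortical ablation injury, in which sensory and motor cortex is removed by surgery, with sham-operated mice. All were female C57BL/6J mice operated at 3 months of age, and the thalamus of the operated side was collected 21 days later. Each group was 1 droplet-based single-nucleus library. It was made from a pool to which each of 4 mice gave the same number of nuclei, selected by sorting on a propidium iodide stain. Nothing in the data tells the mice of a pool apart. With 1 library per group no test between sham and injury was possible, and every interval below is a 95% counting interval, which leaves out how much mice differ.

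A voltage-gated sodium channel opens when the membrane depolarizes and carries the inward current of the action potential. The alpha subunit forms the pore and senses voltage, and its isoforms differ in where in the neuron they sit and in how they inactivate. Beta subunits cross the membrane once, carry an immunoglobulin-like domain outside the cell, and tune gating and surface density. Relay neurons of the thalamus send glutamatergic axons to the cortex, and the inhibitory neurons of the thalamic reticular nucleus project back onto them.

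The sham library held 16373 nuclei after filtering, with a median of 7190 unique molecular identifiers (UMIs, counted molecules), and the injury library 21777 nuclei with a median of 6810. Of the deposited barcodes, 101 occurred in both libraries. Glutamatergic neurons numbered 11731 sham and 12254 injury nuclei in 18 clusters, and GABAergic neurons 1957 and 3278 nuclei in 2 clusters. There were 991 and 2300 oligodendrocytes, 209 and 510 astrocytes, 109 and 165 oligodendrocyte precursors, and 27 and 154 microglia, each name standing for nuclei like that class. Markers set the neurons apart in both libraries: the vesicular glutamate transporter gene Slc17a6 was at 165 and 151 CPM, the share of all UMIs of a class scaled to 1000000, in glutamatergic and at 11.4 and 13.6 CPM in GABAergic neurons, and Gad1, for the enzyme that makes GABA, was at 1.95 and 3.06 CPM against 188 and 182 CPM. Tcf7l2, a transcription factor gene of thalamic and habenular neurons, was at 579.7 and 566 CPM in glutamatergic neurons.

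Of the 5 alpha genes, 4 lie within 1178 kb of chromosome 2. In GRCm38 coordinates these are Scn3a (chr2:65457118-65567627, minus strand), Scn2a (chr2:65620771-65767447, plus strand), Scn1a (chr2:66270778-66440840, minus strand) and Scn9a (chr2:66480080-66634962, minus strand). Scn8a is on chromosome 15 (chr15:100869858-101045938, plus strand). The beta genes are on chromosome 9, where Scn2b (chr9:45117782-45130070, plus strand) ends 8324 bases before Scn4b begins (chr9:45138395-45154152, plus strand), and Scn3b is elsewhere on the same chromosome (chr9:40269217-40291618, plus strand). The alpha genes span between 111 and 176 kb, and the beta genes 12.3, 22.4 and 15.8 kb for Scn2b, Scn3b and Scn4b. Levels are ranked between genes as CPM per 100 kb of gene span, because a long gene offers more unspliced sequence to nuclear RNA capture. Where the order depends on this scaling, values without it are given too. Whether intronic reads were counted is not given in the sources used here, so whether the scaling suits these counts is not known.

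The RefSeq promoter table for GRCm38.p6 held 6 of the 8 members, with 8 start sites, and had no entry for Scn3a and Scn3b. Shown here are the 250 bases before a RefSeq start site of the alpha genes Scn1a and Scn8a and of the chromosome 9 neighbours Scn2b and Scn4b, whose levels in neurons lay far apart. These sites differ from the gene bounds given above. The Scn8a window thus lies wholly within the Scn8a span, and each of the others overlaps the span of its gene in part. For Scn8a the first of its start sites in the table is shown. Capitals mark each CG dinucleotide, the site of DNA methylation, which reads the same on both strands.
Scn1a, chr2:66440838-66441087, minus strand: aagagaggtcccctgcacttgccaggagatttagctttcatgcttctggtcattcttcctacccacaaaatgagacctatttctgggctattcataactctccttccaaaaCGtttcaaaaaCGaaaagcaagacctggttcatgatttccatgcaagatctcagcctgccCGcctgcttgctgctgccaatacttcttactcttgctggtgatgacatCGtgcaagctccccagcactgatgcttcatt
Scn8a, chr15:100870395-100870644, plus strand: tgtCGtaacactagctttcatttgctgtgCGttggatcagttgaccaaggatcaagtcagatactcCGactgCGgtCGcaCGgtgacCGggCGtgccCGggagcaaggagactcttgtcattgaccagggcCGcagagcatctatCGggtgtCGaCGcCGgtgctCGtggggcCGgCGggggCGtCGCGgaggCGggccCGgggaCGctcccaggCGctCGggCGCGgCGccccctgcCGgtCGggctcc
Scn2b, chr9:45117626-45117875, plus strand: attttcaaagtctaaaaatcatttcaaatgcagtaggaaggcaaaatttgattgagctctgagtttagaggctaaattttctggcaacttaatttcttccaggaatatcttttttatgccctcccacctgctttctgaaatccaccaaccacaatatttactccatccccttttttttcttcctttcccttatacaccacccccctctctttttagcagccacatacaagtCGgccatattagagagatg
Scn4b, chr9:45138374-45138623, plus strand: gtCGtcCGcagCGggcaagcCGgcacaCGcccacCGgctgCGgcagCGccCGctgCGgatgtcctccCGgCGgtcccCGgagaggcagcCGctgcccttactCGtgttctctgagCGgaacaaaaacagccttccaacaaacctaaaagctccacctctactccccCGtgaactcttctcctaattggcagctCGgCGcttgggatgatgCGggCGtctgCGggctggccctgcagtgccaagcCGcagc
The 4 stretches held 4, 30, 1 and 23 CG dinucleotides in the order shown. Over 32851 promoters of the same length the median was 6, and 92.1% of them held at least 1, 62.2% at least as many as Scn1a, 13.3% at least as many as Scn4b and 5.94% at least as many as Scn8a. The letters CCAAT, read on either strand, occurred once in the window of Scn1a and once in that of Scn4b and are held by 33.8% of promoters. TATAAA and GGGCGG, on either strand, were not in any of these 4 windows, and are held by 12.4% and 32.7% of promoters. Counts at the 3′ end of transcripts do not tell which start site was used.

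All 5 alpha genes were detected in both neuron classes. Scn2a, which encodes the main alpha subunit of unmyelinated axons and of young axon initial segments, was at 406 CPM (sham) and 398 CPM (injury) in glutamatergic neurons and at 421 and 405 CPM in GABAergic neurons. Scn1a, known for its role in fast-spiking inhibitory neurons and for epilepsy when one copy is lost, was at 372 and 364 CPM in glutamatergic and at 459 and 411 CPM in GABAergic neurons. Scn8a, for the alpha subunit of mature initial segments and nodes of Ranvier, was at 295 and 306 CPM in glutamatergic and at 291 and 289.5 CPM in GABAergic neurons.

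Scn3a, an alpha gene best known from the developing brain, was at 195 and 187 CPM in glutamatergic neurons and at 335 and 309 CPM in GABAergic neurons. Scn9a, best known from peripheral sensory neurons and pain, was at 255 and 242 CPM in glutamatergic and at 361 and 353 CPM in GABAergic neurons. The intervals of both genes were far apart between the classes in each library, for example 192 to 197 CPM against 326 to 345 CPM for Scn3a in the sham library. Scn9a overlaps the antisense gene Gm13629 over 65947 bases. Gm13629 had 76.7 and 80.4 UMIs for every 100 of Scn9a in glutamatergic neurons and 75.5 and 72.8 in GABAergic neurons. Since the sources do not state whether counting used the strand, reads of Scn9a and Gm13629 cannot be told apart with certainty. The other overlapping antisense genes held fewer counts, at 4.33 and 3.85 UMIs of Gm13630 for every 100 of Scn1a and 1.62 and 1.54 UMIs of Gm13595 for every 100 of Scn3a in glutamatergic neurons. No gene overlaps Scn2a, Scn8a, Scn3b or Scn4b.

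**Figure D1:**
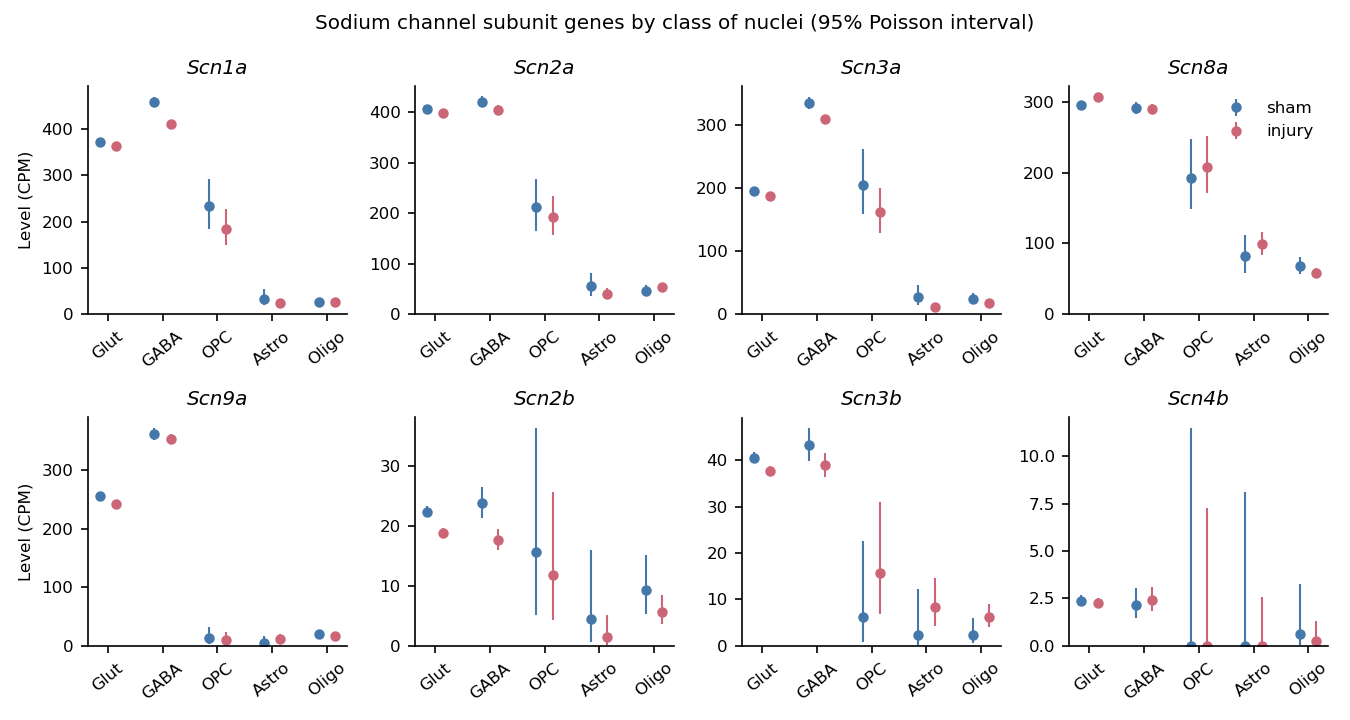
Level of each member in CPM, on axes that start at 0 and differ between genes, in glutamatergic (Glut) and GABAergic (GABA) neurons, oligodendrocyte precursors (OPC), astrocytes (Astro) and oligodendrocytes (Oligo) of the sham (blue) and injury (red) library. Points are class levels and bars are 95% Poisson intervals. Scn3a and Scn9a were higher in GABAergic than in glutamatergic neurons in both libraries, and oligodendrocyte precursors held 4 alpha genes at higher levels than the other glia shown but little Scn9a.

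GABAergic and glutamatergic neurons were then compared within each library. No member differed by 1 or more on the log2 scale in both libraries, neither higher (3.23% of 14420 genes with at least 200 UMIs) nor lower (4.98%) in GABAergic neurons. The difference was largest for Scn3a, at a log2 of 0.78 (0.74 to 0.83) in sham and 0.72 (0.68 to 0.76) in injury nuclei, and next for Scn9a, at 0.50 (0.46 to 0.54) and 0.55 (0.51 to 0.58). Scn1a followed at 0.30 (0.26 to 0.34) and 0.18 (0.14 to 0.21). Scn2a was at 0.05 (0.01 to 0.09) and 0.02 (-0.01 to 0.06), and Scn8a at -0.02 (-0.07 to 0.03) and -0.08 (-0.12 to -0.04). The beta genes were at 0.09 and -0.09 for Scn2b, 0.09 and 0.05 for Scn3b and -0.15 and 0.09 for Scn4b, and on this scale all of their intervals held 0. Scaling the class sums with edgeR's TMM factors lowers each of these differences by 0.15 (sham) and 0.17 (injury), so relative to that shift Scn2a and Scn8a lay below 0 in both libraries, while Scn3a and Scn9a stayed above it and Scn1a did so by 0.15 in sham but by 0.011 in injury nuclei. Relative to the same shift Scn2b was at -0.06 (sham) and -0.26 (injury), Scn3b at -0.05 and -0.12, and Scn4b at -0.29 and -0.07. The intervals of Scn2b and Scn3b in the injury library, lowered by that amount, lay below 0, so whether these beta genes differed between the classes depends on the scaling.

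The higher Scn3a of GABAergic neurons lay mostly in 1 of the 2 GABAergic clusters, a comparison chosen after the values were seen. Cluster 9, in which all 5 markers of the thalamic reticular nucleus were at their highest (among them the parvalbumin gene Pvalb and Six3), had 643 CPM of Scn3a in sham and 579 CPM in injury nuclei. Cluster 1, led by Gm38505, Cdh23 and Pax6, had 218 and 203 CPM, close to the 195 and 187 CPM of the glutamatergic class. The log2 difference of cluster 9 over cluster 1 was 1.56 (1.48 to 1.64) in sham and 1.51 (1.44 to 1.58) in injury nuclei. Cluster 9 also had the highest Scn1a, at 571 and 537 CPM, and the highest Scn9a, at 469 and 461 CPM, of all 20 clusters. Against cluster 1 these were differences of 0.46 (0.38 to 0.53) and 0.57 (0.51 to 0.63) for Scn1a and of 0.55 (0.47 to 0.64) and 0.57 (0.50 to 0.63) for Scn9a. The other alpha genes were higher in cluster 9 too. Scn2a differed by 0.20 (0.12 to 0.28) and 0.20 (0.13 to 0.26), and Scn8a by 0.28 (0.18 to 0.38) and 0.44 (0.36 to 0.51). TMM factors were not computed between these clusters.

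Scn3b went the other way, at 29.3 and 24.9 CPM in cluster 9 against 48.6 and 44.4 CPM in cluster 1, a log2 difference of -0.73 (-1.04 to -0.43) and -0.83 (-1.08 to -0.59). Scn4b had 16 and 39 UMIs in cluster 9, or 4.15 and 5.93 CPM, and 14 and 17 UMIs in cluster 1, or 1.38 and 1.01 CPM. Scn2b, at 27.0 and 18.7 CPM in cluster 9 and 22.6 and 17.3 CPM in cluster 1, did not differ between these clusters beyond counting error.

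Among the glutamatergic clusters, 3 shared low Scn3a and Scn3b and high Scn4b. Cluster 4, which had the highest level of 3 of the 7 glutamatergic markers (Prkcd, Synpo2 and Tcf7l2), and cluster 10, which came next for Prkcd and Synpo2, had low Scn3a, at 121 and 109 CPM in cluster 4 and 118 and 114 CPM in cluster 10 (sham and injury). Both had low Scn3b as well, at 16.9 and 13.7 CPM in cluster 4 and 13.9 and 14.5 CPM in cluster 10, the lowest clusters by the mean of both libraries. Their Scn4b was high, at 5.67 and 6.94 CPM in cluster 4 and 10.3 and 6.35 CPM in cluster 10, where the class as a whole had 2.37 and 2.24 CPM. Scn4b encodes the subunit known to carry a blocking particle for resurgent sodium current. Cluster 16, led by Fgf10, had the same arrangement, with 115 and 98.1 CPM of Scn3a, 18.7 and 13.7 CPM of Scn3b and 5.42 and 8.45 CPM of Scn4b. Cluster 2, which came next to cluster 4 for Tcf7l2, did not share it, with Scn3b at 38.7 and 36.2 CPM and Scn4b at 1.77 and 1.03 CPM. Scn8a was highest in cluster 10, at 371 and 390 CPM.

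Clusters 7 and 11 stood at the other end of the glutamatergic clusters for Scn3a and Scn4b. Cluster 7 had the highest level of 7 of the 8 medial habenula markers, among them Chat and the nicotinic receptor gene Chrnb4, and cluster 11 that of the other marker, Tac2. The medial habenula adjoins the thalamus and signals with acetylcholine and glutamate. Scn3a was at 459 and 448 CPM in cluster 7 and at 444 and 407 CPM in cluster 11, against 195 and 187 CPM in the class. Scn1a was low there, at 223 and 205 CPM in cluster 7 and 230.0 and 241 CPM in cluster 11. Scn2a was highest of all clusters in cluster 11, at 546 and 537 CPM. Scn9a was lowest of all clusters in cluster 7, at 68.3 and 66.1 CPM, but was at 207 and 191 CPM in cluster 11. Scn4b had 0 and 1 UMI in each of these clusters. Scn3b was at 43.8 and 48.5 CPM in cluster 7, near the 40.6 and 37.7 CPM of the class, and at 65.8 and 58.1 CPM in cluster 11. Scn8a in cluster 7, at 346 and 350 CPM, was above the 295 and 306 CPM of the class.

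**Figure D2:**
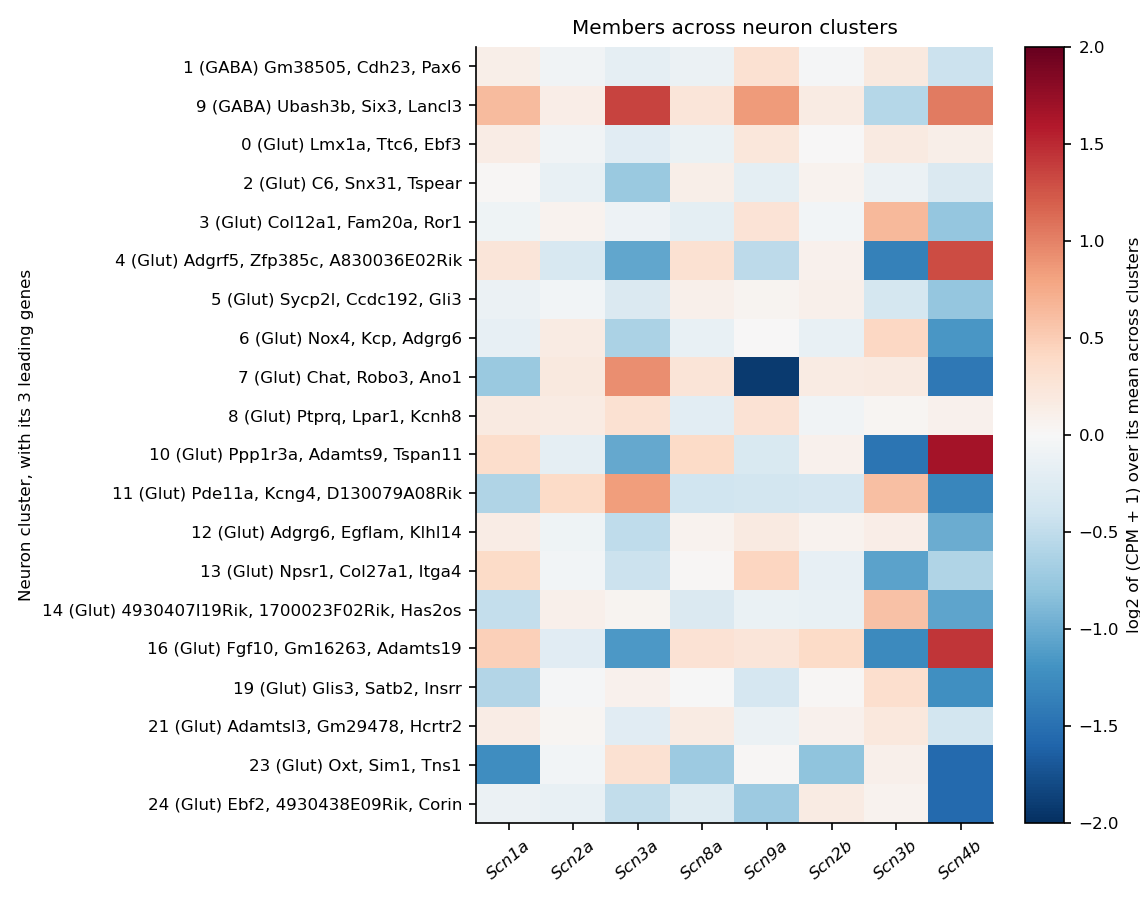
Heat map of the 8 members (columns) in the 2 GABAergic and 18 glutamatergic neuron clusters (rows, with number and 3 leading genes), as the log2 of the mean CPM of both libraries plus 1 over its mean across the 20 clusters. Red is above and blue below that mean. Scn3a and Scn4b run in opposite directions in clusters 4, 10 and 16 and in clusters 7 and 11, and Scn9a is lowest in cluster 7.

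The members differed in how widely they ranged over the 20 clusters. The ratio of the highest to the lowest cluster, on the mean CPM of both libraries, was 6.93 for Scn9a, 5.73 for Scn3a, 4.52 for Scn3b, 3.69 for Scn1a, 2.39 for Scn2b, 2.18 for Scn8a and 1.63 for Scn2a. Scn2a thus had the smallest ratio over the 20 clusters, between 333 CPM in cluster 4 and 541 CPM in cluster 11. The lowest cluster for Scn1a, Scn8a and Scn2b was cluster 23, led by the oxytocin gene Oxt and Sim1, which held 78 sham and 186 injury nuclei. Over the 15 clusters with at least 200 nuclei in each library the ratio was 2.59 for Scn1a, 1.72 for Scn8a and 1.45 for Scn2b, and with 1.63 for Scn2a the smallest ratio was then that of Scn2b. Scn3a was lowest in cluster 16, Scn3b was highest in cluster 3 at 66.2 and 62.2 CPM, and Scn2b was highest in cluster 16 at 33.5 and 19.8 CPM. Scn4b had 0 UMIs in both libraries of clusters 23 and 24.

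Over these 20 clusters, which share 2 libraries, the log2 levels of Scn8a and Scn2b had a Pearson correlation of 0.82, Scn2a and Scn3a of 0.78, Scn1a and Scn2b of 0.66, Scn1a and Scn8a of 0.65, and Scn2a and Scn3b of 0.65. Scn3b ran against Scn8a at -0.64 and against Scn1a at -0.59. Of all genes with at least 1000 UMIs in these clusters, the pattern nearest to that of Scn3b belonged to Cep112it at 0.94, with Tceal3 and AW146154 at 0.92 each. The nearest to Scn1a were Sema7a at 0.91, Prrt3 at 0.90 and Syt3 at 0.90, and the nearest to Scn3a were Pgm1 at 0.89, Lrig1 at 0.89 and Anks1 at 0.88. For Scn2a they were Ptk7 at 0.87, Lipa at 0.85 and Gucy1a1 at 0.84, and for Scn8a St3gal5 at 0.86, Mir124a-1hg at 0.85 and Lgr4 at 0.84. For Scn2b they were Zfp108 at 0.81, Abhd17a at 0.79 and Il12rb2 at 0.79. The gene nearest to Scn9a was its antisense neighbour Gm13629 at 0.89, followed by Rab30 at 0.84 and Haus8 at 0.82.

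Per 100 kb of gene span, Scn2a was the highest member in sham glutamatergic neurons, at 277 CPM per 100 kb, followed by Scn1a at 219. Scn2b at 182, Scn3b at 181 and Scn3a at 176 came next, and the intervals of these 3 overlapped. Scn8a at 168 and Scn9a at 165 had overlapping intervals as well. Scn4b was far below, at 15.04 CPM per 100 kb. Without scaling by span, Scn2b at 22.3 CPM and Scn3b at 40.6 CPM stood below every alpha gene. The lowest of those was Scn3a at 195 CPM. The place of these beta genes beside alpha genes rests on the scaling. In sham GABAergic neurons Scn3a was highest at 303 CPM per 100 kb (295 to 312), above Scn2a at 287 (279.7 to 294) and Scn1a at 269.9 (263 to 277). In the injury library Scn3a at 279 and Scn2a at 276 had overlapping intervals. Without the scaling Scn3a, at 335 CPM in sham GABAergic neurons, was below Scn1a at 459 CPM and Scn2a at 421 CPM.

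Expressed as a share of all alpha UMIs divided by span, the mix in glutamatergic neurons was 27.5% Scn2a, 21.8% Scn1a, 17.5% Scn3a, 16.7% Scn8a and 16.4% Scn9a in the sham library. In the injury library it was 27.6%, 21.7%, 17.2%, 17.7% and 15.8% in the same order. In GABAergic neurons Scn3a had the largest share, at 24.1% in sham and 23.5% in injury nuclei, next to 22.8% and 23.2% for Scn2a. Scn1a had 21.4% and 20.3%, Scn9a 18.5% and 19.2%, and Scn8a 13.2% and 13.8% of the mix there. Before division by span Scn3a held only 17.9% and 17.5% of the alpha UMIs in GABAergic neurons, below Scn1a at 24.6% and 23.3%. The rank of Scn3a there rests on the scaling. The sham and injury shares of each gene thus lay closer to each other than the shares of Scn3a in the 2 classes.

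**Figure D3:**
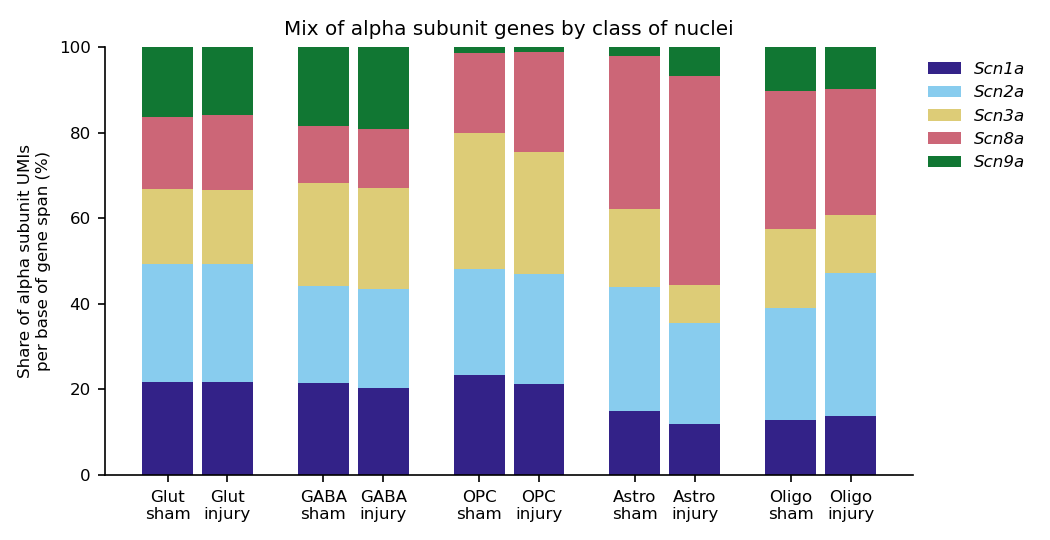
Stacked bars of the share of each alpha gene among all alpha UMIs, after division by gene span, in percent, for each class and library. Sham and injury bars of a class are nearly alike in neurons, Scn9a takes 1.37% and 1.24% in oligodendrocyte precursors, and Scn8a takes 35.6% and 48.9% in astrocytes.

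The beta genes were next described one at a time, in CPM and shares of nuclei that are not scaled by span and so do not rank the genes. Scn3b, for a beta subunit that binds without a disulfide bond, was in glutamatergic neurons at 40.6 CPM (39.4 to 41.8) in the sham library and at 37.7 CPM (36.6 to 38.8) after injury. Scn2b, for a subunit linked to the pore by a disulfide bond, was at 22.3 CPM (21.5 to 23.3) and 18.9 CPM (18.1 to 19.7), and Scn4b, linked in the same way, was at 2.37 CPM (2.09 to 2.68) and 2.24 CPM (1.97 to 2.53) with 251 and 256 UMIs. A UMI of Scn4b was seen in 1.93% of sham and 1.92% of injury glutamatergic nuclei, of Scn2b in 17.7% and 15.5%, and of Scn3b in 27.6% and 26.4%. With every nucleus thinned to 2000 UMIs, which leaves out 239 sham and 251 injury glutamatergic nuclei, the shares were 0.367% and 0.350% for Scn4b, 4.54% and 3.85% for Scn2b and 8.31% and 7.81% for Scn3b. In oligodendrocytes, where the share of a gene can come from free RNA, the thinned shares were 2.03% and 1.40% for Scn2b and 0.313% and 0.95% for Scn3b, over the deeper 277 of 991 sham and 791 of 2300 injury nuclei. The unthinned shares over all of them were 1.61% and 1% for Scn2b, 0.404% and 1.13% for Scn3b and 0.101% and 0.0435% for Scn4b, at a median of 1539 and 1650 UMIs against 7872 and 7971 in glutamatergic neurons. Scn2b and Scn3b were thus seen in a larger share of glutamatergic than of oligodendrocyte nuclei in both libraries, thinned or not. For Scn4b, with 1 oligodendrocyte nucleus in each library, the depth did not allow this comparison after thinning.

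Glia were compared with the level that free RNA gives to genes they should lack. In oligodendrocyte precursors the neuronal genes Slc17a6, Rbfox3, Snap25, Syt1, Stmn2 and Syn1 had a median of 15.9% of their CPM in the whole sham library and 10.4% in the injury library, though Syn1 reached 71.0% and 38.8%. Scn3a was at 99.6% and 81.9% of its library CPM there, Scn8a at 66.2% and 69.5%, Scn1a at 62.0% and 53.01%, and Scn2a at 53.0% and 50.5%. Scn9a, in contrast, was at 4.75% and 4.05%, with 4 and 5 UMIs. The precursors, which give rise to myelinating cells and are known for their own sodium currents, thus held 4 of the 5 alpha genes above the median of the lacking genes. Scn3a was above all 6 of them in both libraries, and Scn8a, Scn1a and Scn2a were above all 6 in the injury library but below Syn1 in the sham library. Their levels were 205 and 161 CPM for Scn3a, 193 and 208 CPM for Scn8a, 234 and 185 CPM for Scn1a and 212 and 193 CPM for Scn2a. Only 109 and 165 nuclei were of this class, and no member reached 200 UMIs over both libraries in it.

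In astrocytes the median of the lacking genes was 8.25% and 7.92%, and the highest of them was at 9.30% and 14.2%. Scn8a was above it at 28.0% and 32.9%, or 81.5 CPM (57.4 to 112) in sham and 98.5 CPM (82.9 to 116) in injury nuclei. Scn1a at 8.78% and 6.61% was below it. Scn2a at 13.8% and 10.4% and Scn3a at 12.8% and 5.67% were above it in the sham library only, on 25 and 12 sham UMIs. So was Scn2b, at 19.7% and 7.82% on 2 UMIs in each library. Scn3b, at 5.53% and 20.5% on 1 and 12 UMIs, was above it in the injury library only. The injury astrocytes included a cluster of 92 nuclei, led by Gfap and A2m, with 0 sham nuclei. In oligodendrocytes the median of the lacking genes was 11.9% and 12.8%, with the highest, Syn1, at 19.3% and 20.0%. Scn8a was at 23.3% and 19.3%, a level of 67.8 and 57.9 CPM, and so above Syn1 in the sham library only. Scn2a at 11.6% and 14.3%, Scn3a at 11.9% and 8.64%, Scn1a at 6.99% and 7.59% and Scn9a at 7.36% and 7.01% were within the range of the lacking genes and are read as background. Different clusters led this class in the libraries, with 585 of its sham and 693 of its injury nuclei in cluster 0 of the non-neuronal nuclei and 112 and 949 in cluster 1. Scn2b stood at 41.9% and 31.7% of its library CPM in oligodendrocytes, on 16 and 24 UMIs. Microglia held 1 UMI of all members in the sham library and are not described further.

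To determine how cortical injury related to these genes in neurons, injury was set over sham in each class. In glutamatergic neurons all 8 members had at least 200 UMIs, and 0 were higher and 0 lower in the injury library by 0.25 or more on the log2 scale, a size passed by 9.3% of 15954 genes upward and 10.9% downward. The median of the 8 was -0.07, where the median of all genes was -0.00066. The counting interval lay wholly above 0 for 1 member and wholly below 0 for 6, as it did for 26.9% and 27.7% of all genes, and it narrows with the depth of a gene.

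Scn8a was the member with the interval above 0, at a log2 of 0.05 (0.03 to 0.08), from 295 to 306 CPM. Scn2a was at -0.03 (-0.05 to -0.01), Scn1a at -0.03 (-0.05 to -0.01), Scn3a at -0.06 (-0.08 to -0.03) and Scn9a at -0.08 (-0.10 to -0.06). The beta genes were at -0.11 (-0.17 to -0.04) for Scn3b, -0.24 (-0.33 to -0.16) for Scn2b, and -0.08 (-0.34 to 0.17) for Scn4b. The class leaves out glutamatergic clusters of 194 sham and 683 injury nuclei, and adding these turned Scn3b to 0.03. The difference of Scn2b was the largest of the 8, from 22.3 to 18.9 CPM.

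**Figure D4:**
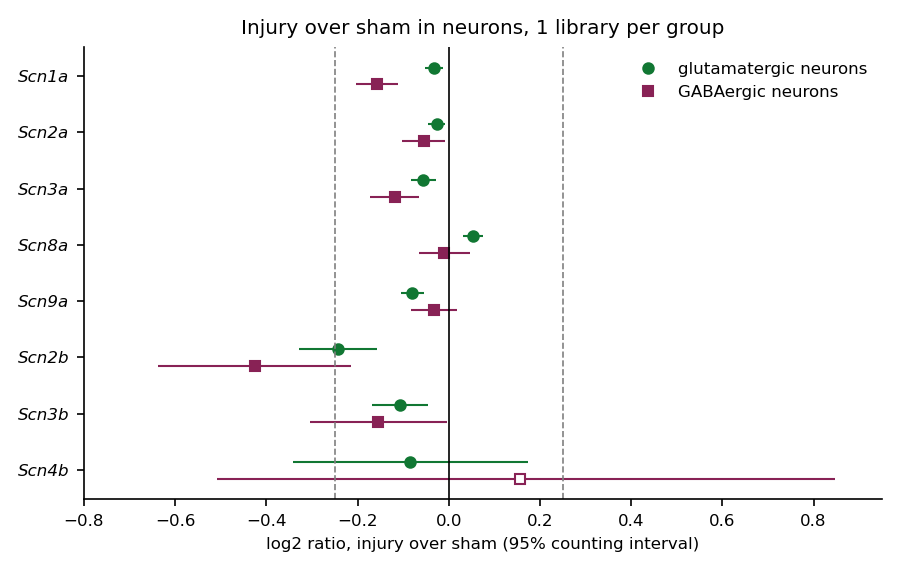
log2 ratio of injury over sham for each member in glutamatergic (green circles) and GABAergic (purple squares) neurons, with 95% counting intervals; the dashed lines are at 0.25 and -0.25 and the open square, Scn4b in GABAergic neurons, rests on 30 and 56 UMIs. Only Scn2b in GABAergic neurons, at -0.43, lies beyond a dashed line.

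In GABAergic neurons 7 members had at least 200 UMIs, and 0 were higher (11.3% of 11694 genes) and 1 lower (9.88%) by 0.25 or more. The interval was wholly above 0 for 0 members (17% of all genes) and wholly below 0 for 5 (18%), and the median of the 7 was -0.12, or -0.063 without called doublets. Scn2b was the member past the fold, at 23.8 CPM in sham and 17.7 CPM in injury nuclei, a log2 of -0.43 (-0.64 to -0.21). Scn1a was at -0.16 (-0.20 to -0.11), from 459 to 411 CPM, Scn3a at -0.12 (-0.17 to -0.07) and Scn2a at -0.06 (-0.10 to -0.01). Scn3b was at -0.15 (-0.30 to -0.0041), and adding the left-out GABAergic cluster of 2 sham and 390 injury nuclei turned it to 0.13, so its direction rests on which clusters are counted. Scn9a at -0.03 (-0.08 to 0.02) and Scn8a at -0.01 (-0.07 to 0.05) did not differ beyond counting error. Scn4b, with 30 and 56 UMIs, was at 0.16 (-0.51 to 0.85). In oligodendrocytes only Scn2a, at 0.24 (-0.13 to 0.63), and Scn8a, at -0.23 (-0.55 to 0.10), had 200 UMIs, so 0 members were higher (16.2% of 4740 genes) and 0 lower (17.4%) by that size. With nuclei thinned to 2000 UMIs both passed it, at 0.44 for Scn2a and -0.27 for Scn8a. That setting also leaves out the 714 sham and 1509 injury oligodendrocytes with under 2000 UMIs. With free RNA subtracted Scn8a was at -0.75, so neither ratio is read as stable.

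Gene span, compared after the values were seen, moved with these ratios. In glutamatergic neurons genes spanning at least 50 kb had a median of 0.05 and were lower by 0.25 or more in 1.55% of 4842 cases, whereas genes spanning less than 50 kb had a median of -0.03 and were lower in 15.0% of 11102 cases. In GABAergic neurons the medians were 0.02 and -0.01, and 3.25% and 13.5% were lower. The alpha genes are all of the first kind and the beta genes of the second. The part of gene span in the ratio of Scn2b was not tested. Scn2b also lies whole within the antisense gene Gm10684, which had 8.49 and 12.1 UMIs for every 100 of Scn2b in glutamatergic neurons and 13.2 and 20.2 in GABAergic neurons.

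Within single clusters the ratios of the members were mostly small. Of all genes with at least 200 UMIs, the interval was wholly above 0 for between 7.82% and 25.9% in a cluster and wholly below 0 for between 8.56% and 25.4%. Scn2b had at least 200 UMIs in 11 clusters and was lower in the injury library in all 11, between -0.54 in cluster 3 and -0.08 in cluster 6 with a median of -0.26, and the interval was wholly below 0 in 4 of them. These included both GABAergic clusters, at -0.38 (-0.64 to -0.13) in cluster 1 and -0.53 (-0.92 to -0.14) in cluster 9. All clusters share the same 2 libraries, so their common direction is not repeated evidence. Of the clusters under 200 UMIs, 21 and 24 were higher, at 0.06 on 37 and 44 UMIs and at 0.55 on 5 and 22 UMIs. The others were lower, among them cluster 14 at -0.87 (-1.56 to -0.21) and cluster 16 at -0.76 (-1.28 to -0.24). Scn3a had intervals below 0 in 10 and above 0 in 0 of 19 clusters, with a median of -0.11. Scn2a was below 0 in 2 and above in 0 of 20, between -0.12 and 0.14, and Scn3b in 0 and 0 of 15, between -0.30 and 0.21.

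Scn8a had intervals above 0 in 3 and below 0 in 1 of 20 clusters, Scn1a above in 2 and below in 3 of 20, and Scn9a above in 3 and below in 4 of 19. Scn9a had the widest spread, from -0.34 (-0.44 to -0.23) in cluster 12 to 0.47 (0.17 to 0.77) in cluster 23. In cluster 12 it was at 323 CPM in sham and 256 CPM in injury nuclei. Scn1a was lowest in cluster 24 at -0.26 (-0.60 to 0.10) and highest in cluster 23 at 0.42 (0.03 to 0.82), on 73 and 229 UMIs, and Scn8a ran from -0.08 in cluster 0 to 0.38 (-0.05 to 0.83) in cluster 24. Clusters 23 and 24 were the smallest of the 20, with 78 and 70 sham nuclei. In these clusters between 6.90% and 30.8% of all genes were higher and between 7.72% and 29.2% lower by 0.25 or more, the highest shares being those of cluster 24.

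**Figure D5:**
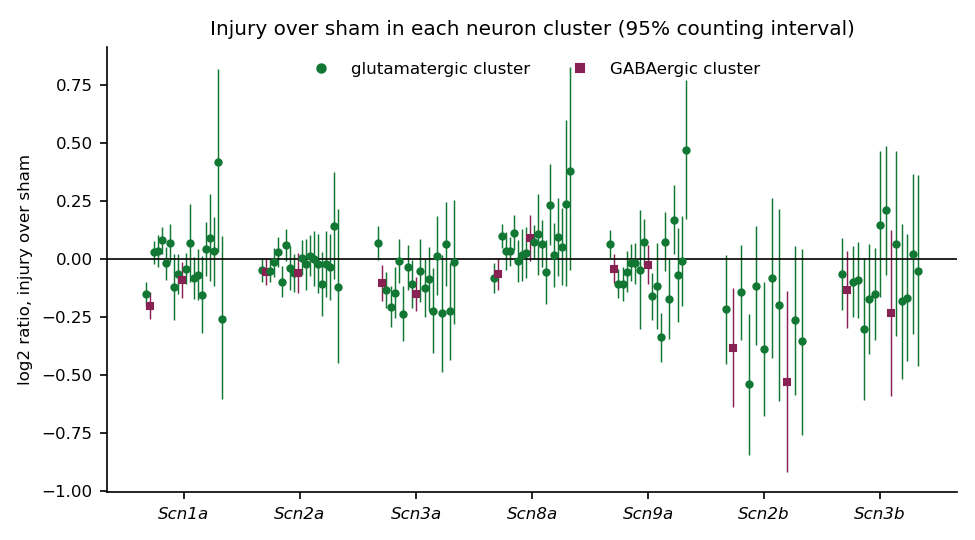
log2 ratio of injury over sham in each neuron cluster in which a member had at least 200 UMIs, with 95% counting intervals, clusters in order of their number within each member. Circles are glutamatergic and squares GABAergic clusters. All 11 points of Scn2b lie below 0, while those of the alpha genes lie on both sides.

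Genes that work with the channels were examined as a list of 34, covering initial segment scaffolds, contactins, intracellular FGF homologous factors, ubiquitin ligases, sodium pump subunits, splicing regulators, potassium channels and the repressor Rest. In glutamatergic neurons all 34 had at least 200 UMIs, 4 were higher (9.3% of all genes) and 4 lower (10.9%) by 0.25 or more, and the median was 0.05. In GABAergic neurons 33 did, with 1 higher (11.3% of all genes), 4 lower (9.88%) and a median of -0.01. Apart from the 1 of 33, these shares lie near those of all genes. The scaffold genes that hold sodium channels at the initial segment were within that size in both classes. Ank3, for ankyrin G, was at 0.11 (0.10 to 0.12) in glutamatergic and 0.09 (0.07 to 0.12) in GABAergic neurons, and Sptbn4, for beta IV spectrin, at 0.08 (0.05 to 0.11) and -0.02 (-0.08 to 0.05).

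Among sodium pump genes the beta subunit gene Atp1b2 was lower in glutamatergic neurons, from 10.3 to 7.96 CPM at -0.37 (-0.49 to -0.24). The neuronal splicing regulator gene Rbfox3 was higher in both classes, at 0.34 (0.32 to 0.36) and 0.32 (0.26 to 0.39). The potassium channel gene Kcna1 was lower in both, at -0.31 (-0.37 to -0.24) and -0.31 (-0.45 to -0.18). In GABAergic neurons the pump gene Atp1b1 was the lowest, from 199.8 to 156 CPM at -0.36 (-0.43 to -0.29). Atp1b1 was lower in glutamatergic neurons too, from 149 to 124 CPM at -0.27 (-0.30 to -0.23).

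Of other voltage-gated sodium channel genes, Scn7a had 1247 sham and 1399 injury UMIs in all nuclei, Scn11a 18 and 44, Scn10a 10 and 27, and Scn4a 3 and 6. Scn7a, for an atypical sodium channel, was at 7.43 and 6.86 CPM in glutamatergic neurons, a log2 of -0.11 (-0.26 to 0.03), and at 11.5 and 12.3 CPM in GABAergic neurons, a log2 of 0.10 (-0.19 to 0.38). It was higher in GABAergic than in glutamatergic neurons, by 0.63 (0.38 to 0.88) in sham and 0.84 (0.64 to 1.04) in injury nuclei. The other 3 genes had too few UMIs for a ratio.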

How the data were processed

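The authors aligned reads of 10x 3′ libraries (v.3.1 chemistry) to GRCm38 with Cell Ranger 6.0.2 and deposited raw UMI counts per gene and barcode, with no normalization. The annotation release and the use of introns and strand are not given in the sources used here. The libraries held 137850696 (sham) and 180106314 (injury) UMIs, which set the precision of the counting intervals. Nuclei with over 2% mitochondrial UMIs, under 200 or over 7500 genes were left out, as in the study. Scrublet (scanpy 1.11.5) called 2179 sham and 3871 injury nuclei doublets at 0.8% per 1000 nuclei; they were kept, but clusters with over 50% of them were set apart. Anchor integration of both libraries in Seurat 5.3.0 used 1993 variable genes, none of them a member or listed gene (30 components, resolution 0.5), and neurons and other nuclei were clustered again. Clusters were named from marker lists with at least 3 detected markers, and a neuron cluster needed 50 nuclei in each library. Kept out were 194 sham and 683 injury nuclei of glutamatergic clusters (1 of 3 for leading markers of another class), 2 and 390 of a GABAergic cluster, 876 and 1694 of doublet clusters and 253 and 318 of a cluster of few UMIs.

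UMIs were summed per class and scaled to the class total (CPM). Intervals are exact Poisson for levels and Clopper-Pearson for ratios and shares. Ratios were read for genes with at least 200 UMIs over both libraries, against a log2 size of 0.25, as the study used. Pattern likeness is Pearson's r of log2(CPM + 1). The ratios and their intervals were tried on simulated Poisson counts, which hold no spread between mice. All members are named; of the partner list, up to 3 of the highest and lowest per neuron class past 0.25 with an interval clear of 0, plus Ank3 and Sptbn4, which were chosen after their values were seen, as were the comparison by gene span and that of the 2 GABAergic clusters. Members and lists were chosen with earlier results of these data known. Alternatives were TMM factors (edgeR 4.0.16), no called doublets, no integration, a resolution of 1, free RNA subtracted, kept-out clusters included, means of single nuclei or of clusters, thinning to 2000 UMIs, other folds and other minimums. Some genes that this rule names are not reported here.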

Additional observations from a re-analysis of the deposited data

How the results depend on the processing

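No paired analysis was possible because sham and injury had 1 pooled library each. In glutamatergic neurons 1 member in place of 0 was lower by 0.25 or more with the mean CPM of single nuclei and with the mean over clusters, in both cases Scn2b (-0.27 and -0.27). With the mean over clusters 2 partner genes were lower and the partner median was 0.063. With a fold of 0.5, 1 partner gene was higher and 0 lower in glutamatergic neurons, and in GABAergic neurons 0 members and 0 partner genes were lower and 0 partner genes higher. Without called doublets the median of the members in GABAergic neurons was -0.063. With the kept-out clusters included, 2 partner genes were higher and 7 lower in GABAergic neurons, and Scn3b turned from -0.15 to 0.13 there and from -0.11 to 0.03 in glutamatergic neurons, because clusters with high Scn3b are nearly all from the injury library. With at least 50 UMIs or no minimum, 2 partner genes were higher in GABAergic neurons. The share of all genes past each size is not given for these changed settings. The counts are therefore not read as results about the members or partner genes. Scn2b stayed between -0.58 and -0.42 in GABAergic and between -0.27 and -0.23 in glutamatergic neurons under all alternatives run. In GABAergic neurons Scn3a ranged from -0.24 to -0.063, Scn8a from -0.024 to 0.017 and Scn9a from -0.13 to 0.0029. In oligodendrocytes Scn2a ranged from 0.19 to 0.44 and Scn8a from -0.75 to -0.20. With 1 library per group the spread between mice is not known, and depth limits Scn4b and all glial ratios.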

Other observations

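Neuron clusters 18, 22 and 25, kept out of the classes because the sham library held too few of their nuclei, had subunit levels of their own. Glutamatergic clusters 22 and 25 held 0 sham nuclei and 280 and 211 injury nuclei, and expressed Slc17a7 at 248 and 191 CPM and Slc17a6 at 17.9 and 19.7 CPM. Scn8a was at 519.7 and 486 CPM there, Scn3b at 136 and 136 CPM, and Scn9a at 27.6 and 54.01 CPM. The values of these 3 genes lie outside the range of the 20 clusters compared. GABAergic cluster 18, led by Ano2, Myo5b and Prdm16, held 2 sham and 390 injury nuclei and had 96.2 CPM of Scn3b in the injury library. A type found in 1 library cannot be told apart from a difference in dissection or capture.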
